A study of Mus musculus with 70 samples.

Results

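Socs3 and 9 genes of the same signalling route were followed across leukocytes sorted from mouse blood: the inhibitors Socs3, Socs1, Socs2 and Cish, the transcription factors Stat3, Stat5a and Stat5b, the kinase Jak2, and the IL-6 receptor chains Il6ra and Il6st. These 10 genes were taken by symbol from the 52636 genes of a count table, and all 10 were matched through GENCODE M21. They were chosen on a measured value, because Socs3 stood out as higher in Ly6Chigh monocytes of susceptible than of control mice. For that reason the 10 genes' values in that comparison are given as a description with no p-value. Tests are given for the other comparisons. Those that use the CON Ly6Chigh libraries share them with the comparison that chose Socs3, so for Socs3 they are not independent of the choice.

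Libraries came from 4 sorted cell types, Ly6Chigh monocytes, Ly6Clow monocytes, B cells and T cells, of 3 groups of mice. Control (CON) mice were not stressed, while susceptible (SUS) and resilient (RES) mice had been defeated in physical contact with aggressive CD-1 mice over 10 days (chronic social defeat stress, CSDS). SUS and RES mice were told apart by a social interaction ratio below 1 (SUS) or of 1 and above (RES), so both are outcomes of one treatment and not separate treatments. The mice were wild-type C57BL/6J animals bought at 7 weeks of age, and the labels name no transgene or drug for any group. They give the source as brain, whereas the design text and the methods describe sorting from blood. Each group held 6 libraries, other than 4 for Ly6Clow CON and 5 each for B and T cells of RES mice.

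Of 70 libraries 68 were used. The library labelled B-cell RES 52 carried the T-cell gene Cd3e at 412 and the B-cell gene Cd79a at 5.76 CPM (a gene's counts scaled to a common library total, TMM-adjusted), and the library labelled T-cell RES 70 carried them at 0.143 and 1417 CPM. Both went against their labels and were left out, and results that change when they are kept are given with that value. On a scale of all 70 libraries, Socs3 was at 150.3 CPM in library 52 and 20.0 CPM in library 70. Libraries held between 19769835 and 67038231 counts. B- and T-cell markers dominated their own libraries. The summed level of 5 B-cell genes was 4146 to 5336 CPM in B cells and at most 34.2 CPM elsewhere. That of 6 T-cell genes was 1944 to 2844 CPM in T cells and at most 98.6 CPM elsewhere. Other lists separated less cleanly. The 5 NK-cell genes summed to 212.7 to 1126 CPM in Ly6Clow monocytes and at most 73.1 CPM elsewhere. Their part in the Ly6Clow results was not tested. The 4 Ly6Chigh-monocyte genes summed to 3965 to 7592 CPM in their own libraries. They stood at 168.0 to 560.4 CPM in Ly6Clow monocytes and 670.2 to 1020 CPM in B and T cells. Which mouse a library came from is not in the labels. Libraries of different cell types may therefore share animals, and nothing says that replicates are separate animals. P-values then measure only the spread between these libraries. In sorted bulk RNA, a change in the mix of cells and a change in the RNA per cell cannot be told apart.

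IL-6 and related cytokines bind a receptor whose shared signalling chain is gp130, the product of Il6st, together with a ligand-specific chain such as the IL-6 receptor, the product of Il6ra. JAK kinases bound to the receptor then phosphorylate STAT proteins, which enter the nucleus and switch on target genes. Socs3 is one of these targets and closes a feedback loop, since its protein binds gp130 and JAKs and shuts the signal off. Socs1, Socs2 and Cish are related feedback inhibitors, with Cish and Socs2 best known downstream of STAT5.

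STAT dimers are known to bind palindromes of the form TTCNNNGAA, so the promoter windows of the members were searched for these letters, which read the same on either strand. The RefSeq windows (GRCm38.p6, 250 bases before to 50 after the gene start) covered 9 of the 10 members in 11 windows. Socs2 was not in the table. The motif was in 2 of the 11 windows, those of Socs3 and Cish, and in 8.30% of all 32851 promoter windows. The shorter form TTCNNGAA was in 8.52% of all windows and, among the members, in the Jak2 window. The windows of Socs3 (chr11:117969317-117969616, minus strand) and Cish (chr9:107296409-107296708, plus strand) are printed 5′ to 3′ because these 2 were the members' windows that held the motif, with the TTCNNNGAA matches in capitals.
Socs3: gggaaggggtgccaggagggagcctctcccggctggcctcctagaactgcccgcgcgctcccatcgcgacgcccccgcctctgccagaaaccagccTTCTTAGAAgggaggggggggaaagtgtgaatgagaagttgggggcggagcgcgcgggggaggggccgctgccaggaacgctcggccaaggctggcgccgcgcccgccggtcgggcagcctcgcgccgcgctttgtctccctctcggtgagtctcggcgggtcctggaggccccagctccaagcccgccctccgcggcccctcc
Cish: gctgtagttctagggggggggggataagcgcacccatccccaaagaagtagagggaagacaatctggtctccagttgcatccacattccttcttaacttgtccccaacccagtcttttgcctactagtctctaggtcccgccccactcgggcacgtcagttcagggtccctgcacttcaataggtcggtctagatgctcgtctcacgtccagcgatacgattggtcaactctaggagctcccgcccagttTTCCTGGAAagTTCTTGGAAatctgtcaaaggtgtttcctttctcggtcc
The Socs3 match, TTCTTAGAA, began 154 bases before the RefSeq start. The Cish window held a pair of matches, TTCCTGGAA and TTCTTGGAA, at the start itself. These are matches of letters and not measured binding sites.

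In the GRCm38 annotation Socs3 (ENSMUSG00000053113) lies on chromosome 11 from 117966079 to 117970047, and its exons overlap no other gene. Stat5b (100780731 to 100850724), Stat5a (100859351 to 100885169) and Stat3 (100885098 to 100939540) form a cluster on the same chromosome. Socs1 lies on chromosome 16 (10782240 to 10785536), Socs2 on chromosome 10 (95385362 to 95417180), Cish on chromosome 9 (107296026 to 107302784), Jak2 on chromosome 19 (29251828 to 29313080), Il6ra on chromosome 3 (89864059 to 89913196) and Il6st on chromosome 13 (112464070 to 112510086). Cish overlaps genes on the opposite strand by 740 bases, Il6ra by 242 bases, and Stat3 and Stat5a overlap each other by 72 bases. Whether the counting used strand is not given in the sources used here, so reads in those stretches may belong to either gene. Stat5a and Stat5b are close paralogs, and reads shared between them may be split or lost.

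Without stress, some members of this route differed widely in level between the cell types and others little. In the 22 CON libraries, per kilobase of exon, the highest mean was that of Il6ra in Ly6Chigh monocytes (64.9 CPM per kb). Next came Stat5b, Stat3, Il6ra and Socs3 in Ly6Clow monocytes (43.8, 42.0, 41.9 and 38.4 CPM per kb) and Il6st in T cells (36.9 CPM per kb). Cish and Socs2 stood at or below 0.834 CPM per kb in every cell type. The pairwise tests between cell types of CON mice used edgeR's quasi-likelihood test with Benjamini-Hochberg adjustment over 21032 genes. A gene was called where the adjusted p was under 0.05 and the absolute log2 fold change above 1.

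**Figure D1:**
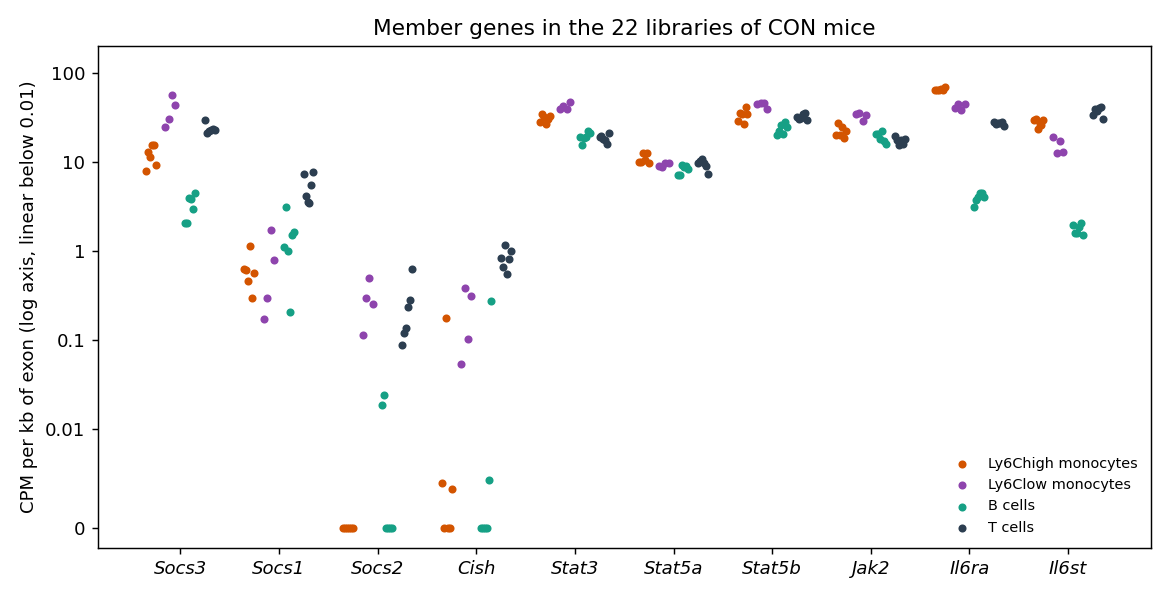
Level of each member gene in CPM per kilobase of exon (log axis, linear below 0.01) in the 22 libraries of CON mice, each point 1 library, coloured by cell type. Il6ra and Il6st sit lowest in B cells, Socs3 is lowest in B cells and highest in Ly6Clow monocytes, and Socs2 is at 0 in all 6 Ly6Chigh libraries.

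The receptor chains separated B cells from the rest. Il6ra, the chain that binds IL-6, was at 560.4 ± 17.2 CPM in Ly6Chigh monocytes (SD, n = 6), 361.9 ± 28.6 CPM in Ly6Clow monocytes (n = 4), 234.1 ± 9.25 CPM in T cells (n = 6) and 34.4 ± 4.37 CPM in B cells (n = 6). No library of one cell type overlapped with the next in that order, though the share of all genes without overlap was not counted for these pairs. Its level in Ly6Chigh monocytes was 16.7-fold that in B cells (log2 fold change 4.06, standard error 0.09, adjusted p = 4.14e-22 from edgeR). Il6st, the signalling chain gp130, was at 409.2 ± 46.6 CPM in T cells, 306.0 ± 28.8 CPM in Ly6Chigh monocytes, 171.4 ± 36.4 CPM in Ly6Clow monocytes and 19.5 ± 2.45 CPM in B cells. B cells carried 21.5-fold less Il6st than T cells (log2 fold change -4.43, standard error 0.13, edgeR adjusted p = 7.28e-20), while T cells and Ly6Chigh monocytes differed by 1.34-fold (log2 -0.42, standard error 0.11, adjusted p = 0.00225), short of the threshold on size.

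Socs3 in CON mice followed another order. It was at 70.8, 87.4, 160.9 and 125.5 CPM in the 4 Ly6Clow libraries. In T cells it ranged from 60.7 to 84.2 CPM with a median of 65.5, in Ly6Chigh monocytes from 22.9 to 44.8 CPM with a median of 35.1, and in B cells from 5.94 to 13.0 CPM with a median of 9.75. Ly6Clow monocytes and T cells overlapped and differed by 1.65-fold (log2 0.72, standard error 0.23, edgeR adjusted p = 0.0146), which missed the threshold on size. Ly6Clow exceeded Ly6Chigh monocytes 3.20-fold (log2 fold change -1.68 for Ly6Chigh against Ly6Clow, standard error 0.23, edgeR adjusted p = 5.94e-06). The CON Ly6Chigh libraries are also part of the comparison that chose Socs3, so this p-value is not independent of the choice. T cells exceeded B cells 7.46-fold (log2 -2.90 for B against T cells, standard error 0.23, adjusted p = 1.13e-10).

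Of the other inhibitors, Socs1 and Cish had their highest mean in T cells, while Socs2 was sparse in every cell type. Socs1 was at 15.3 ± 5.53 CPM in T cells against 4.14 ± 2.81 CPM in B cells, 2.18 ± 2.06 CPM in Ly6Clow and 1.79 ± 0.824 CPM in Ly6Chigh monocytes, and T cells passed the test against each of the 3 (adjusted p from 2.56e-05 to 0.00444). Cish was at 5.35 ± 1.43 CPM in T cells and at most 1.37 CPM on average in the others. Its difference passed for B against T cells (log2 -4.20, standard error 1.45, adjusted p = 0.0296) and for Ly6Chigh monocytes against T cells (log2 -4.75, standard error 1.49, adjusted p = 0.0113), but not for Ly6Clow monocytes against T cells (adjusted p = 0.35). Socs2 had no count in any of the 6 Ly6Chigh CON libraries. Against a floor of 3 counts over that group, 0.0140 CPM, its mean of 2.77 CPM in Ly6Clow monocytes was at least 198-fold higher and its mean of 2.35 CPM in T cells at least 168-fold higher.

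The kinase and the STAT genes were far more even. Stat3, which carries the IL-6 signal to the nucleus, was at 400.1 ± 36.8 CPM in Ly6Clow monocytes, 292.1 ± 28.1 CPM in Ly6Chigh monocytes, 182.2 ± 22.6 CPM in B cells and 176.4 ± 17.0 CPM in T cells. B and T cells differed by a log2 value of 0.01 (standard error 0.09, adjusted p = 0.964), whereas Ly6Clow monocytes exceeded both by more than 2-fold (log2 1.18 and 1.19). Jak2 and Stat5b were likewise highest in Ly6Clow monocytes, at 166.8 ± 15.2 and 242.4 ± 16.6 CPM, with absolute log2 differences between cell types of at most 0.95. Stat5a lay between 58.9 and 77.5 CPM on average, and none of its 6 pairs was called.

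Counted over the members, 2 of 10 were called between Ly6Chigh and Ly6Clow monocytes, where 11.2% of all genes were called. The count was 4 between Ly6Chigh monocytes and B cells (33.1% of all genes), 4 between Ly6Chigh monocytes and T cells (32.8%), 5 between Ly6Clow monocytes and B cells (30.3%), 3 between Ly6Clow monocytes and T cells (28.5%) and 6 between B and T cells (20.2%). Socs2 is among the called members in 5 of these 6 pairs, each with a group near or at 0. With 10 genes, the counts lie near the shares of all genes in most pairs and are not read as a trait of the route.

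Against CON, the mean level of Socs3 was higher in SUS and RES mice in all 4 cell types. The difference passed the test for SUS mice in B and T cells. It also passed for RES mice in Ly6Chigh monocytes, against the same CON libraries that were used to choose the gene. In Ly6Chigh monocytes Socs3 ranged from 22.9 to 44.8 CPM in CON mice, from 107.2 to 494.9 CPM in SUS mice with a median of 232.8, and from 63.5 to 237.9 CPM in RES mice with a median of 133.8. Neither stressed group overlapped with CON, and the 6 SUS libraries spread over more than 4-fold among themselves. SUS mice were 7.45-fold above CON mice (log2 fold change 2.90, standard error 0.41), the value for which Socs3 was chosen. That comparison had 3.45% of 16955 genes called, 12.6% past the adjusted p alone, and 6.96% with libraries that did not overlap between the groups.

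The CON libraries of that comparison were shared, so the test in RES mice is not independent of the choice. RES mice themselves were not used to choose the gene. In them Socs3 rose 4.04-fold over CON in Ly6Chigh monocytes (log2 fold change 2.02, standard error 0.40, edgeR adjusted p = 0.014), in a comparison where 0.997% of genes were called and the libraries of 4.42% did not overlap. SUS exceeded RES mice by a log2 value of 0.88 (standard error 0.39, adjusted p = 0.999), with an interval of 2 standard errors either side from 0.11 to 1.65, and no gene was called between these groups by edgeR (0.0% of 16955; 620 genes had an unadjusted p under 0.05, and DESeq2 called 20). With the level of red-cell genes as a covariate the rise in RES mice was no longer called (log2 1.25, adjusted p = 0.906), and the SUS value was 1.93.

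**Figure D2:**
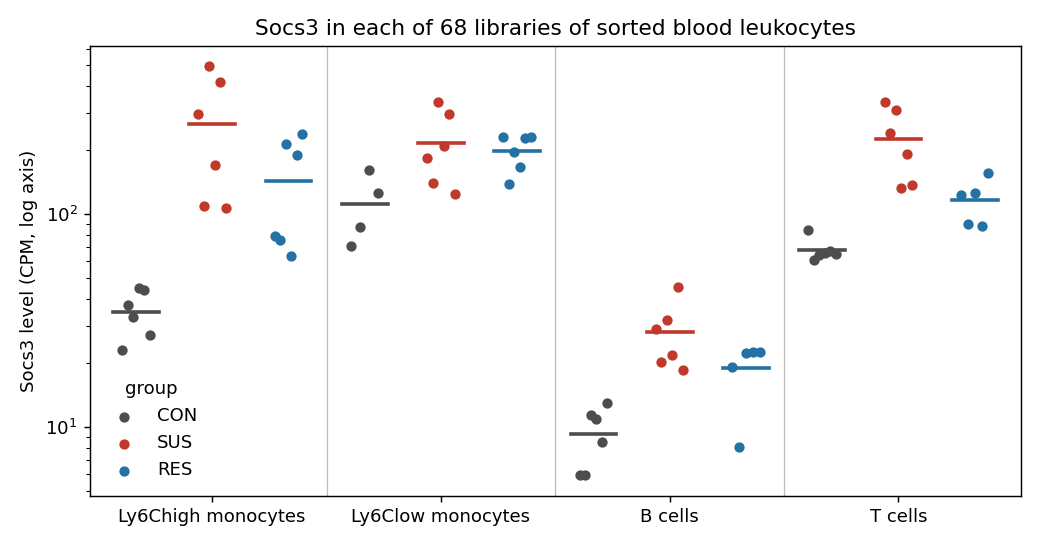
Socs3 level in CPM (log axis) in each of 68 libraries, by cell type and group, with a bar at each group's mean. All SUS libraries of Ly6Chigh monocytes, B cells and T cells lie above all CON libraries of the same cell type, while in Ly6Clow monocytes the groups overlap.

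In T cells Socs3 was at 60.7 to 84.2 CPM in CON T cells and at 133.2, 137.6, 192.3, 241.8, 308.3 and 337.6 CPM in those of SUS mice, so that every SUS library lay above every CON library. It rose 3.30-fold (log2 fold change 1.72, standard error 0.22, edgeR adjusted p = 0.00338). Only 5 of 18860 genes, 0.0265%, were called in this comparison, and for 0.345% the groups did not overlap. The 5 were Socs3, Ly6a, Neb, Rrm2 and Il2ra, named here after their values were seen. Il2ra, the high-affinity chain of the IL-2 receptor, rose 2.37-fold (log2 1.24, standard error 0.23, adjusted p = 0.0312). The Socs3 call held without each of the 17 libraries in turn (log2 1.58 to 1.84), but not with library 70 kept (log2 1.73, adjusted p = 0.717) or with the red-cell covariate (log2 1.72, adjusted p = 0.144).

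In RES T cells Socs3 was at 123.7, 90.3, 126.3, 88.1 and 155.8 CPM, each above all CON libraries, the highest of which was 84.2 CPM. The log2 difference from CON was 0.78 (standard error 0.23, edgeR adjusted p = 0.781), and the groups did not overlap for 0.615% of genes. None of 18860 genes was called by edgeR (0.0%; 775 had an unadjusted p under 0.05, and DESeq2 called 17). SUS exceeded RES T cells by a log2 value of 0.95 (standard error 0.23, adjusted p = 1.00, interval of 2 standard errors 0.48 to 1.41), again with no gene called by edgeR (0.0%; 451 at an unadjusted p under 0.05, and 6 by DESeq2). For Socs3, DESeq2 gave this difference an adjusted p of 0.0327, at a size under the threshold.

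B cells held the least Socs3. In CON mice the 6 libraries ranged from 5.94 to 13.0 CPM and in SUS mice from 18.6 to 45.7 CPM, with medians of 9.75 and 25.3. The groups did not overlap, which was so for 0.187% of genes. Socs3 rose 3.00-fold (log2 fold change 1.59, standard error 0.26, edgeR adjusted p = 0.0483) and was the 1 gene called among 17620 (0.00568%). That call lay close to the threshold: it held in 4 of 17 fits that left out a library (adjusted p 0.00578 to 0.27, log2 1.39 to 1.71), and was lost with the 2 groups alone (adjusted p = 0.051), with library 52 kept (adjusted p = 1.00) and with the red-cell covariate (adjusted p = 0.843), at a log2 value of 1.52 to 1.59 throughout. DESeq2 gave an adjusted p of 6.93e-05.

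RES B cells were at 19.2, 8.09, 22.3, 22.5 and 22.5 CPM of Socs3, 4 libraries above all CON libraries and 1, library 40, within them. The log2 difference from CON was 1.02 (standard error 0.27, edgeR adjusted p = 0.953), with no gene called by edgeR (0.0%; 560 at an unadjusted p under 0.05, and 15 by DESeq2). SUS against RES B cells gave 0.56 (standard error 0.27, adjusted p = 1.00). With library 52 kept, which carried T-cell rather than B-cell markers and Socs3 at 150.3 CPM, the difference turned to -0.57. In that contrast edgeR called 0.0% of genes (240 at an unadjusted p under 0.05, and 0 by DESeq2).

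Ly6Clow monocytes started from the highest Socs3 level and, of the 4 cell types, showed the smallest SUS difference. SUS libraries ranged from 123.9 to 336.9 CPM with a median of 196.0, and RES libraries from 139.0 to 231.4 CPM with a median of 211.6, both overlapping the CON range of 70.8 to 160.9 CPM. The log2 difference was 0.95 for SUS (standard error 0.31, edgeR adjusted p = 0.299, 0.0871% of 19521 genes called) and 0.81 for RES mice (standard error 0.31, adjusted p = 0.408, 0.0154% called). SUS and RES mice differed by 0.14 (standard error 0.27, adjusted p = 1.00), where edgeR called 0.0% of genes (740 at an unadjusted p under 0.05, and 6 by DESeq2).

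Whether the Socs3 change differed between cell types was examined in one fit of 12 groups. The SUS-minus-CON change was larger in Ly6Chigh than in Ly6Clow monocytes by a log2 value of 1.98 (standard error 0.48), than in B cells by 1.35 (standard error 0.46) and than in T cells by 1.20 (standard error 0.46), given without a test because they hold the comparison that chose the gene. The RES-minus-CON change was larger in Ly6Chigh than in Ly6Clow monocytes by 1.20 (edgeR adjusted p = 0.281, where 0.099% of genes passed). It was larger than in B cells by 1.01 (edgeR adjusted p = 0.232, 1.65% passed) and than in T cells by 1.25 (adjusted p = 0.134, 0.713% passed). None of these passed the threshold, and all of them use the CON Ly6Chigh libraries that were used to choose the gene. B and T cells differed by -0.15 in the SUS change (standard error 0.46, adjusted p = 1.00, 0.0949% passed), and Ly6Clow monocytes and T cells by -0.78 (standard error 0.48, adjusted p = 0.861, 0.00412% passed).

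**Figure D3:**
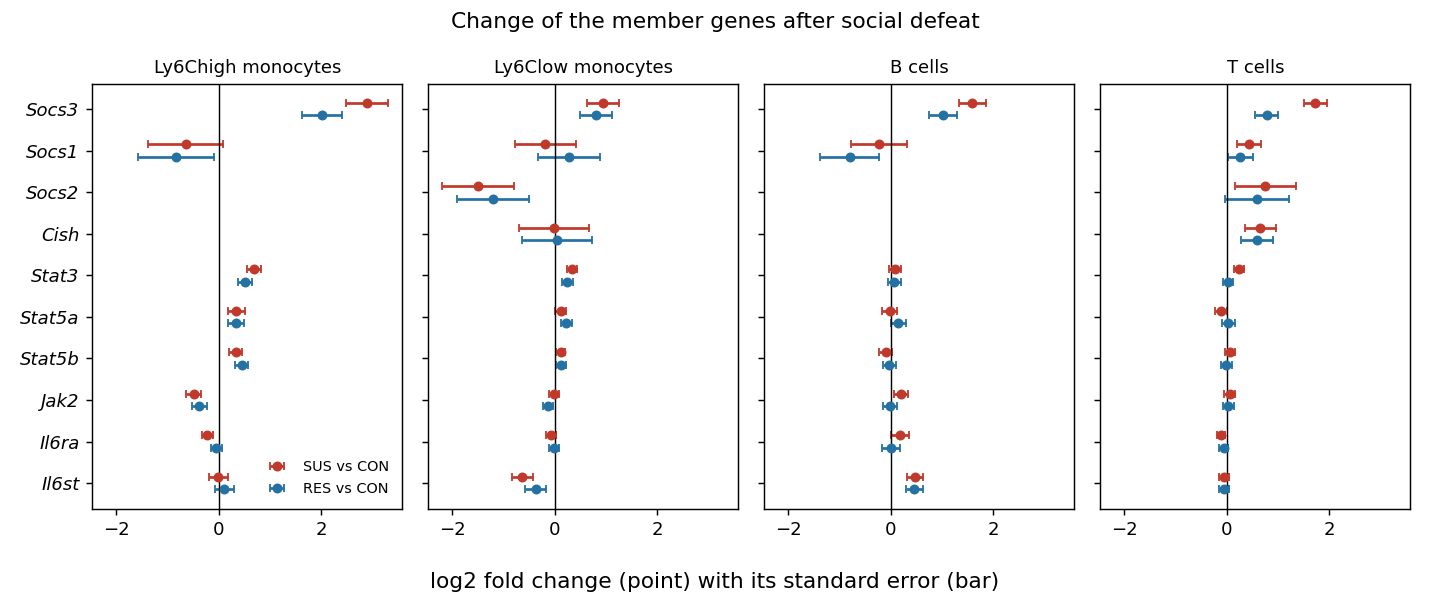
Log2 fold change of SUS against CON (red) and RES against CON (blue) for the members tested in each cell type, as points with standard errors as bars. Socs3 lies to the right of 0 in all 8 comparisons, and the other members mostly lie within 1 log2 unit of 0.

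Stat3 was the other member whose SUS and CON libraries did not overlap in Ly6Chigh monocytes. It ranged in CPM from 256.1 to 330.1 (CON), 408.7 to 553.8 (SUS) and 287.8 to 547.9 (RES), so SUS libraries did not overlap with CON and RES libraries did. SUS mice were 1.61-fold above CON (log2 0.69, standard error 0.14, described only). In RES mice Stat3 passed the adjusted p at a size under the threshold (log2 0.51, standard error 0.14, edgeR adjusted p = 0.0401), as did Stat5b (log2 0.45, standard error 0.13, adjusted p = 0.0427), where 4.97% of genes passed the adjusted p alone. Stat3's adjusted p ranged from 0.0263 to 0.983 over 6 other settings, and it passed in 8 of 18 fits that left out a library. Stat5b's ranged from 0.0219 to 0.995 over the same settings, and it passed in 7 of 18. In Ly6Clow monocytes Stat3 differed by 0.33 in SUS (standard error 0.10, adjusted p = 0.201), in T cells by 0.23 (standard error 0.09, adjusted p = 0.756) and in B cells by 0.09 (standard error 0.12, adjusted p = 0.999).

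**Figure D4:**
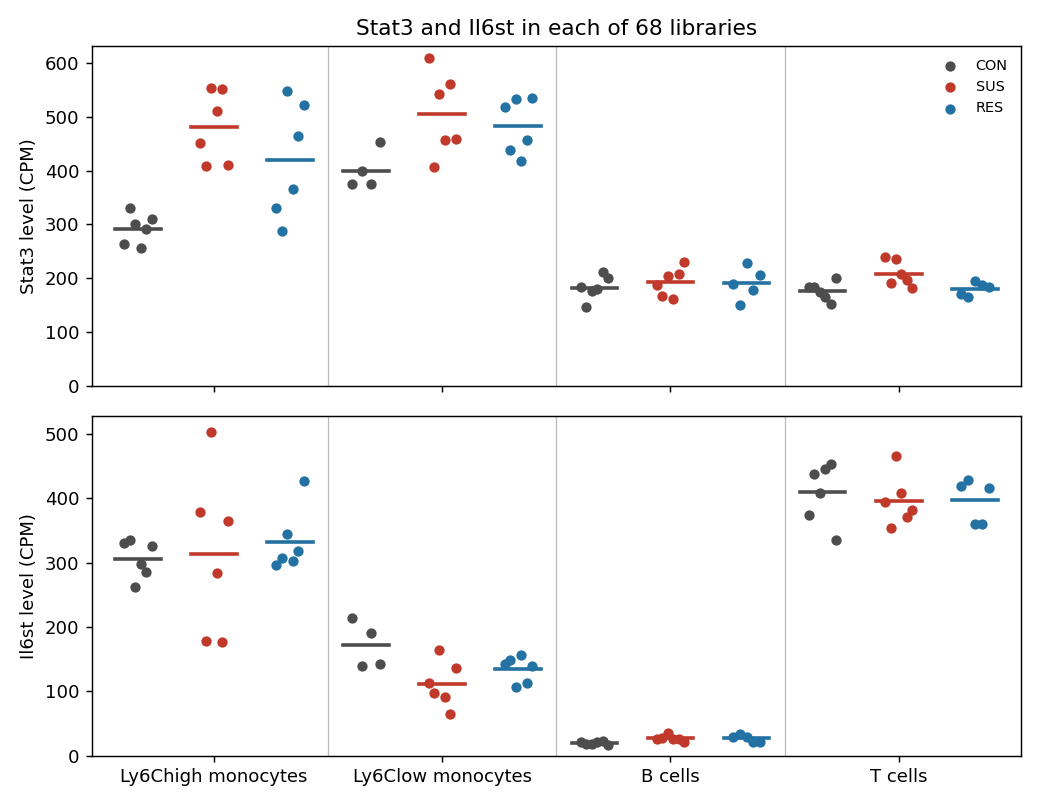
Stat3 (upper panel) and Il6st (lower panel) levels in CPM in each of 68 libraries, by cell type and group, with a bar at each group's mean. Stat3 in SUS Ly6Chigh monocytes lies at 408.7 CPM and above, over the CON maximum of 330.1, and Il6st in B cells stays at or below 35.1 CPM.

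Jak2, the kinase, had lower means in stressed than in CON Ly6Chigh monocytes, without passing the test in RES mice. Its CPM ranged from 93.0 to 138.8 (CON), 52.2 to 100.8 (SUS) and 70.4 to 104.5 (RES), overlapping in part (log2 -0.49 with standard error 0.15 in SUS, and -0.38 with standard error 0.14 and edgeR adjusted p = 0.121 in RES mice). In the other cell types its log2 differences from CON lay between -0.13 and 0.20, with adjusted p of 0.748 or more. Stat5a differed from CON by 0.35 in SUS (standard error 0.16) and 0.33 in RES Ly6Chigh monocytes (adjusted p = 0.223).

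Neither receptor chain passed any test of stress against CON. Il6ra in Ly6Chigh monocytes ranged in CPM from 546.8 to 594.1 (CON), 402.0 to 579.0 (SUS) and 452.1 to 635.2 (RES) (log2 -0.23 in SUS and -0.05 in RES mice). Il6st in the same cells had a similar median in all groups (311.8, 323.9 and 312.6 CPM in CON, SUS and RES mice), but its SUS libraries spread from 176.6 to 503.4 CPM. In Ly6Clow monocytes Il6st was at 213.4, 139.0, 190.2 and 142.9 CPM in CON mice and at 64.7 to 164.7 CPM in SUS mice (log2 -0.63, standard error 0.21, edgeR adjusted p = 0.296). In B cells it was at 16.7 to 22.8 CPM in CON and 21.8 to 35.1 CPM in SUS mice (log2 0.47, standard error 0.15, adjusted p = 0.999). These opposite directions were tested against each other: the SUS change of Il6st was lower in Ly6Clow monocytes than in B cells by a log2 value of 1.09, as the difference -1.09 (standard error 0.24, adjusted p = 0.0398), where 0.128% of genes passed. In a fit of those 2 cell types alone no member passed.

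No inhibitor other than Socs3 passed a test of stress against CON. Mean Socs1 in Ly6Chigh monocytes was 1.79 (CON), 1.16 (SUS) and 1.01 CPM (RES) (log2 -0.65 with standard error 0.73, and -0.84 with standard error 0.74 and adjusted p = 0.564). In T cells Socs1 was at 15.3 ± 5.53 CPM in CON and 20.8 ± 5.71 CPM in SUS mice (log2 0.43, standard error 0.23, adjusted p = 0.999). Cish in T cells measured 5.35 ± 1.43 (CON), 8.51 ± 4.16 (SUS) and 8.07 ± 3.16 CPM (RES) (log2 0.66, standard error 0.30, adjusted p = 0.976 for SUS). Socs2 and Cish were too low to be tested for stress in Ly6Chigh monocytes and B cells, where Socs2 was at 0 in 12 of 12 CON and SUS Ly6Chigh libraries and 1 RES library held 58 counts. In Ly6Clow monocytes Socs2 was at 2.77 ± 1.53 CPM in CON and 0.986 ± 0.804 CPM in SUS mice (log2 -1.50, standard error 0.70, adjusted p = 0.497).

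Of the members, 8 were tested in Ly6Chigh monocytes and in B cells and 10 in Ly6Clow monocytes and in T cells. Leaving aside SUS against CON in Ly6Chigh monocytes, which chose Socs3, 1 member, Socs3, was called in SUS against CON in B cells (0.00568% of all genes called) and T cells (0.0265%). Socs3 was also called in RES against CON in Ly6Chigh monocytes (0.997%), which shares its CON libraries with the choice of the gene. No member was called in the other 8 stress comparisons, where between 0.0% and 0.0871% of all genes were called, so a count of 0 there is near the background.

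Among the 88 other genes of the route, most calls were in Ly6Chigh monocytes. Their lists were chosen with earlier results of these data known, so adjusted p-values of these genes in SUS Ly6Chigh monocytes are descriptions. Each call named in those cells was lost with the red-cell covariate. Over all genes it took the calls from 585 to 2 in SUS and from 169 to 0 in RES mice. Under the covariate the log2 value in SUS mice fell, for example, from 1.36 to 1.08 for Bcl3 and from 6.36 to 5.21 for Lrg1. Covariate and group cannot be told apart in these cells. Of 7 other JAK and STAT genes, Jak3, the kinase of receptors that use the common gamma chain, rose in Ly6Chigh monocytes from 16.6 ± 7.33 to 45.9 ± 19.2 CPM in SUS mice (log2 1.45, standard error 0.30, edgeR adjusted p = 0.00353) and by 1.12 in RES mice (adjusted p = 0.0333). The other 6 were not called, the most abundant being Stat6 (log2 0.25) and Jak1 (log2 0.03) in SUS mice. Of 8 PIAS and phosphatase genes, Ptpn1, a phosphatase that acts on JAKs, rose from 433.7 ± 60.3 to 917.2 ± 221.6 CPM in SUS mice (log2 1.05, standard error 0.17, adjusted p = 0.00109). None of the 4 other SOCS genes passed in any comparison, and in SUS Ly6Chigh monocytes their median log2 value was -0.36 against -0.05 over all genes.

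Of 21 cytokine receptor genes, 15 were tested in Ly6Chigh monocytes. Il4ra, the IL-4 receptor chain, rose from 95.4 ± 12.8 to 330.4 ± 142.6 CPM in SUS mice (log2 1.76, standard error 0.28, adjusted p = 0.000931) and by 1.32 in RES mice (adjusted p = 0.0142). Csf2rb, the shared chain of the GM-CSF receptor, and Csf2ra, its specific chain, passed the adjusted p in opposite directions in SUS mice (log2 0.86 and -0.51), both under the threshold on size. In Ly6Clow monocytes Lifr, the LIF receptor that pairs with gp130, rose from 42.3 ± 6.88 to 98.0 ± 31.7 CPM in SUS mice (log2 1.21, standard error 0.21, adjusted p = 0.026). Ptpn1 and Il4ra passed the adjusted p there at smaller sizes (log2 0.51 and 0.68), as did 0.241% of all genes. The Lifr call held in 10 of 16 fits that left out a library.

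Of the 10 ligand genes no more than 7 passed the filter on low counts in any cell type, and none was called. Il6 had no count in any of 52 libraries of Ly6Chigh monocytes, B cells and T cells, which allows up to 0.0015 CPM at 3 counts over all of them, a limit for counting error only. It had counts in 9 of 16 Ly6Clow libraries, at up to 2.48 CPM. Osm, the gene for oncostatin M, was at 2.53 ± 1.40 CPM in CON and 4.91 ± 1.70 CPM in SUS Ly6Chigh monocytes (log2 0.94, adjusted p = 0.274).

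STAT3 target genes gave the most calls of any pathway list. This list too was chosen with earlier results of these data known, so its counts are descriptions. In SUS Ly6Chigh monocytes 6 of 22 were called, against 3.45% of all genes, and all 6 were higher: Bcl3, Pim1, Hp, Saa3, Lrg1 and Nfil3. The list's median log2 value was 0.68 against -0.05 over all genes. Hp, the gene for haptoglobin, rose from 323.8 ± 48.5 to 1129 ± 464 CPM (log2 1.77, standard error 0.26, adjusted p = 0.000471), Pim1, a survival kinase, from 43.6 ± 2.04 to 122.8 ± 42.6 CPM (log2 1.46, standard error 0.22, adjusted p = 0.000636), and Bcl3, a co-regulator of NF-kB, from 40.6 ± 10.6 to 105.7 ± 35.7 CPM (log2 1.36, standard error 0.23, adjusted p = 0.00144). Saa3 and Lrg1 started near 0 and varied widely, Lrg1 from 1.90 to 162.1 CPM in SUS mice and Saa3 from 0.00 to 46.4 CPM. Nfil3, a transcription factor, rose from 43.4 ± 4.84 to 104.3 ± 31.8 CPM (log2 1.23). The remaining 16 were not called, among them Mcl1 (log2 0.11), Fos (log2 0.00) and Zfp36 (log2 0.14).

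The same list in RES Ly6Chigh monocytes had 1 call, Hp (log2 1.37, standard error 0.25, adjusted p = 0.0138), and 5 genes past the adjusted p, with a median of 0.57 against -0.03. Both values share the CON libraries. In Ly6Clow monocytes and T cells of SUS mice the median was 0.32 and 0.53 with 0 calls by edgeR of 21 and 17 tested, and in B cells 0.07 with 0 of 16. Of 7 STAT5 targets, Pim1 rose, Bcl2 fell by 1.47 (standard error 0.45, adjusted p = 0.0346) and 5 were not called in SUS Ly6Chigh monocytes. Of 12 immediate early genes, Ier3 rose in SUS (log2 3.46, standard error 0.62, adjusted p = 0.00161) and RES (log2 2.64, adjusted p = 0.0196) Ly6Chigh monocytes, and Atf3 fell by 1.09 in SUS Ly6Clow monocytes (adjusted p = 0.0455), a call held in 3 of 16 fits that left out a library.

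**Figure D5:**
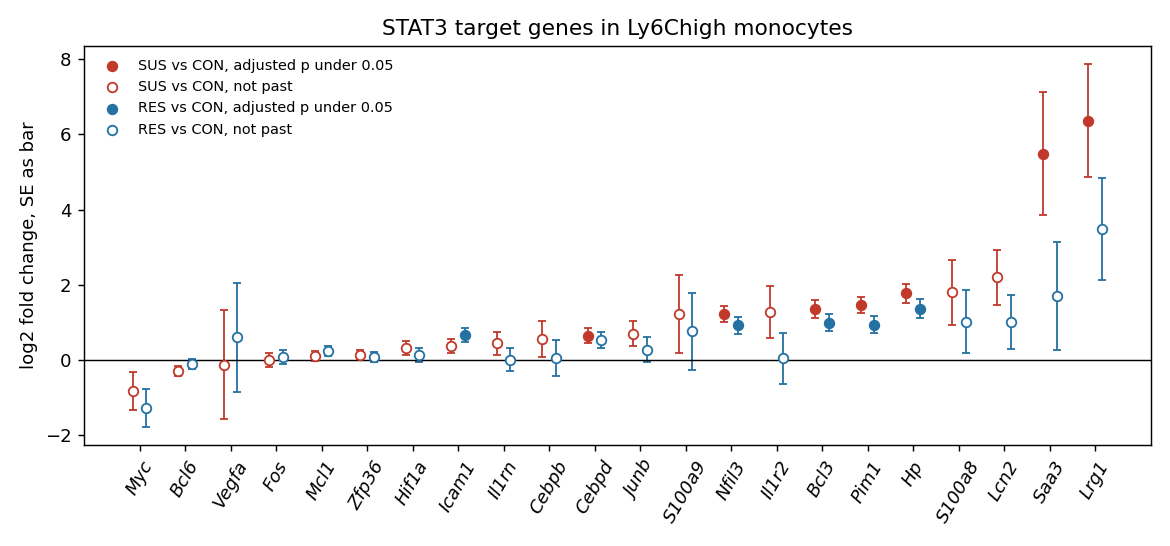
Log2 fold change, with the standard error as a bar, of the 22 STAT3 target genes in Ly6Chigh monocytes for SUS (red) and RES (blue) against CON mice, in order of the SUS value. Filled points passed an adjusted p under 0.05. Both groups share their CON libraries, and 6 genes are past both thresholds in SUS and 1 in RES mice.

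Genes of other cells moved with these results, and their part in them was not tested. The exact permutation tests compared the mean log2 level of a list, while the ranges given are sums. Groups can therefore overlap in 1 of these measures and not in the other. In Ly6Chigh monocytes the summed level of 6 red-cell genes ranged in CPM from 342.8 to 1215 (CON), 1097 to 8988 (SUS) and 1077 to 4348 (RES). On the mean log2 scale every stressed library exceeded every CON library (p = 0.00216 for either group by a two-sided exact permutation test, the smallest value possible here, adjusted p = 0.0289 over 80 tests). On the same scale the 5 dendritic-cell genes were lower in both (exact permutation adjusted p = 0.0289). Their sums were 115.4 to 157.9 CPM in CON and 30.5 to 93.7 CPM in SUS mice. In RES mice they were 69.3 to 144.8 CPM, which overlapped CON. The 8 neutrophil genes, whose cells also hold Hp, Lrg1, S100a8 and S100a9 RNA, summed to 14.6 to 358.8 CPM in CON and 22.3 to 1187 CPM in SUS mice, with Stfa2l1 at 0 in CON, and did not pass (exact permutation adjusted p = 0.814). The 6 platelet genes summed to 6.15 to 10.4 (CON), 5.86 to 51.3 (SUS) and 7.66 to 19.7 CPM (RES) (exact permutation adjusted p = 0.164 and 0.0289).

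In B cells of SUS mice, 5 NK-cell genes summed to 11.0 to 29.8 CPM against 1.40 to 4.04 CPM in CON mice (exact permutation adjusted p = 0.0289). The mean log2 level of 4 Ly6Chigh-monocyte genes was 0.64 higher (exact permutation adjusted p = 0.0433), with Ccr2 at 4.95 CPM against 1.62. The sums of these 4 overlapped, at 740.5 to 1007 CPM against 670.2 to 936.2 CPM. No gene of either list passed the adjusted p of edgeR. The 6 T-cell genes summed to 13.2 to 32.7 CPM against 15.5 to 24.1 CPM (exact permutation adjusted p = 0.148). The neutrophil list summed to 0.165 to 7.44 CPM against 0.0 to 0.814 CPM (exact permutation adjusted p = 0.101), with Ly6g, Cxcr2, Mmp9 and Stfa2l1 at 0 in CON. In T cells of SUS mice, 12 immediate early genes, which respond within minutes to handling of cells, summed to 280.8 to 361.3 CPM against 218.2 to 252.3 CPM (exact permutation adjusted p = 0.0433), and red-cell genes to 1645 to 4496 CPM against 887.9 to 2834 CPM (adjusted p = 0.147). In the Ly6Chigh libraries the immediate early genes gave a mean log2 difference of 0.01 in SUS mice (exact permutation adjusted p = 0.948).

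The genes whose pattern was most like that of Socs3 were found among 9631 genes with at least 5 CPM on average in Ly6Chigh monocytes. Over the 12 cell type and group means these were Mxd1 (Pearson r = 0.959), Txnrd1 (0.934), Cmas (0.932), Ctsd (0.916) and A430046D13Rik (0.914). Of the members, Stat5b came closest at 0.844 (rank 59), with Il6ra at 0.779 (rank 185) and Il6st at 0.726 (rank 358). Over the 18 Ly6Chigh libraries the 5 were F10 (r = 0.984), Wfdc17 (0.978), Il4ra (0.977), Pgk1 (0.976) and Esd (0.975). Among the members in those libraries Stat3 stood at 0.915 (rank 238), Il6st at 0.133, Il6ra at -0.428 and Jak2 at -0.672. The points of each correlation share libraries, depth and the group difference itself, so these values are descriptions and carry no test.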

How the data were processed

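RNA-seq counts were analysed from leukocytes sorted from mouse blood. The authors aligned reads to mm10 with HISAT2 and deposited raw counts per gene from HTSeq, per the labels' processing notes and the study's methods; duplicate, multi-mapping and strand settings are not given in the sources used here. Libraries were made with the SMARTer Stranded Total RNA-Seq Pico kit. Of 52636 Ensembl genes, 52489 were matched to GENCODE M21.

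From these counts, edgeR 4.0.16 (R 4.3.3; TMM, filterByExpr, robust glmQLFit and glmQLFTest) was fitted for each cell type with its 3 groups, for the CON libraries of 4 cell types, and for 12 groups together, with Benjamini-Hochberg adjustment over all genes tested. Levels are CPM on one TMM scale over 68 libraries, folds come from the fits, and levels between genes are per kb of merged exon. DESeq2 1.42.0 was an alternative. Marker lists were compared by exact permutation tests (SciPy 1.17.1) on mean log2(CPM + 0.5). Total counts ranged from 19769835 to 67038231. The fits were tested on simulated data with 200 changed genes.

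The members and lists were chosen with earlier results of these data known. Named genes are the 10 members, the other listed genes that were called (up to 5 in each direction), up to 4 uncalled per list by level, and the 5 most like Socs3. Alternatives were DESeq2, its size factors, no filter, only the groups compared, libraries 52 and 70 kept, mitochondrial, hemoglobin, Gm23935 and Gm26917 genes left out, a red-cell covariate, and each library left out. Results for some of the listed genes are not reported here.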

Additional observations from a re-analysis of the deposited data

Results flagged for a closer look

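A sample apart from the rest of its group was looked for in 111 groups of 4 to 10 libraries with at least 3 libraries above 0, on the log2 scale, and 10 were found. Chance gives about 5% of groups. Library 40 of RES B cells had the lowest Socs3 (8.09 CPM, the others 19.2 to 22.5) and the lowest Socs1 (0.615 CPM, the others 2.24 to 3.36). Library 53 of CON T cells had the highest Socs3 (84.2 CPM, the others 60.7 to 67.0). Library 14 of SUS Ly6Chigh monocytes had the highest Stat5a (149 CPM, the others 78.5 to 97.6) and the lowest Jak2 (52.2 CPM, the others 82.1 to 101). Cish stood apart in library 7 of CON Ly6Chigh monocytes (1.13 CPM, the others at most 0.0288), in library 27 of SUS Ly6Clow monocytes (0.149 CPM, the others 1.24 to 2.09) and in library 42 of SUS B cells (0.791 CPM, the others at most 0.0414). Stat5b was highest in library 61 of RES T cells (223 CPM, the others 156 to 172), and Il6ra in library 16 of CON Ly6Chigh monocytes (594 CPM, the others 547 to 560).

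The SUS change of Il6st differed between Ly6Clow monocytes and B cells by a log2 value of -1.09 (edgeR interaction, adjusted p = 0.0398). The causes of these values were not tested.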

How the results depend on the processing

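Counts of members called, of members past the test between cell types, and list levels gave 613 values under alternatives, of which 586 kept their side of the threshold or their count. With the red-cell covariate the count of members called in SUS against CON went from 1 to 0 in B cells and T cells, as did that in RES against CON in Ly6Chigh monocytes. With libraries 52 and 70 kept it went to 0 in B and T cells, and with the 2 groups alone to 0 in B cells. On the adjusted p alone it was 3 in RES against CON in Ly6Chigh monocytes. SUS against CON in those cells chose Socs3, so its counts are not read as a test. With each library left out it ranged from 0 to 1 in B cells. Without any of libraries 35, 36, 37, 38, 41, 42, 43, 44, 45, 46, 47, 48 or 49 the B-cell count was 0. With the 2 cell types alone, the difference between Ly6Clow monocytes and B cells in the SUS change went from 1 member past the test to 0, and that between Ly6Chigh monocytes and B cells in the RES change from 1, Socs2 with groups at 0, to 0. With a pseudocount of 0.1 CPM, neutrophil genes in RES B cells passed (log2 0.424, adjusted p = 0.0495), while platelet genes in RES Ly6Chigh monocytes (0.873, adjusted p = 0.126) and immediate early genes in SUS T cells (0.187, adjusted p = 0.457) no longer did. Cish between Ly6Chigh monocytes and B cells of CON mice, at -0.55, turned to 4.44 without B-cell library 50, which held 52 of the 53 Cish counts of its group, and went to -4.376 without Ly6Chigh library 7, which held 41 of 43. With each library left out, Saa3 and Bcl2 in SUS Ly6Chigh monocytes kept their calls in 10 of 18 fits, Jak3 and Ier3 in RES mice in 10 and 15 of 18, and Il2ra in SUS T cells in 10 of 17. The causes were not tested. No paired analysis was possible because the groups share no replicate numbers.

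The red-cell covariate uses a level that separates CON from stressed Ly6Chigh libraries, so covariate and group cannot be told apart there. DESeq2 called 38 genes in SUS B cells and 73 in SUS T cells, against 1 and 5 by edgeR. Without the filter on low counts edgeR called 2 and 10. In T cells it called 9, 21, 10 and 10 without libraries 57, 60, 68 and 69, and in B cells 2 without library 39 or 50. At this depth Socs2 and Cish could not be tested for stress in Ly6Chigh monocytes and B cells.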
